A study of Mus musculus with 42 samples.

Results

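The 4sU and flow-through (Ft) fractions of 1 arsenite-stressed NIH3T3 culture were compared gene by gene, to ask which genes took a larger share of the RNA made during the stress and which of the RNA made before it. These were 2 of the 42 samples of the series. They were found by their labels alone, as the AS fractions of the 0 h time point. NIH3T3 is an established line of mouse embryonic fibroblasts. The cells had received 250 µM sodium arsenite (AS) for 1 h together with 50 µM 4-thiouridine (4sU) for 1 h. The same fractions of 2 untreated cultures (NT), labelled for 1 h at the 0 h and 4 h time points, and of 1 culture at 4 h of recovery from the stress (RC), served for comparison. Each fraction of each culture was 1 library, and the 0 h total RNA was available from 3 AS and 3 NT libraries of 3′READS, the method described below. The RNA-seq libraries of total RNA in the series were not used.

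Cells take up 4sU and use it in place of uridine in the transcripts they make. RNA that holds it can be biotinylated and captured on streptavidin beads. RNA made earlier remains in the flow-through, along with any new RNA that was not captured. Arsenite binds protein thiols, generates oxidative and proteotoxic stress, halts most translation and evokes the heat shock, antioxidant and integrated stress responses. A transcript that is made quickly and decays quickly sits mostly in the 4sU fraction, while a transcript with slow turnover sits mostly in Ft.

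3′READS, which sequences the 3′ ends of polyadenylated RNAs, gave read counts at each polyadenylation site (PAS). The AS libraries held 2170692 reads for 4sU and 2642178 for Ft, and the other 6 fraction libraries held 2513834 to 4431949. Reads in the last exon of a gene, or past its end up to 4000 nt, were summed per gene and divided by the library total and scaled to RPM. Since each RNA molecule gives 1 read at its end, RPM needs no correction for length. log2(Ft/4sU) is the ratio of the RPM values, negative where a gene took a larger share of the newly made RNA. It is a relative measure: no spike-in ties the amounts of the fractions together, so a value of 0 does not mean equal amounts of old and new RNA. Mitochondrial reads were 7.58% of the AS 4sU library and 2.73% of the AS Ft library, against 7.15% and 3.22% at NT 0 h. All 10 fibroblast markers of the list were measured, among them S100a4, Vim and Fn1, none of the 7 muscle, 4 epithelial and 4 endothelial markers was listed in the AS fractions, and 1 of 7 macrophage markers, Cd68, was measured.

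Of the protein-coding genes, 7596 had at least 50 reads over the AS pair and were listed in both fractions. Their log2(Ft/4sU) had a median of 0.07, quartiles of −0.71 and 0.69, and extremes of −4.40 and 3.15. Ft was at least 2-fold below 4sU for 1404 genes (18.5%) and at least 2-fold above it for 997 genes (13.1%). With 1 library per fraction these counts have no replicate check, and the intervals given below for single genes are exact 95% Clopper-Pearson intervals that cover counting error only. The tail toward new RNA was the longer one. Another 8 genes of that depth were listed in 4sU alone and 1 gene, Shc2, in Ft alone. Since each library lists only PASs with at least 5 reads, a gene absent from a library may hold up to 4 reads at each PAS: A430110L20Rik, with 62 reads in 4sU, was then below −4.24.

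The 12 genes with the lowest log2(Ft/4sU) among the 4085 genes with at least 200 reads included Yod1, Fam126b, Runx1t1, Fnip1, Mast4, Skil, Tmem2, Cpeb4, Lysmd3, Nipal1 and Ccnt1. Those named spanned −3.98 to −3.17, and the thirteenth gene was at −3.14. Yod1, a deubiquitinase of the OTU family, had 221 reads in 4sU (102 RPM) and 17 in Ft (6.43 RPM), a log2 ratio of −3.98 with an interval of −4.79 to −3.27. With 4 reads at each unlisted PAS it was −3.21, outside that interval and above Fam126b (−3.55), Fnip1 (−3.29) and Runx1t1 (−3.26) counted alike, so the order of these genes is not fixed. Skil, a repressor of TGF-β signaling, had 1315 and 163 reads, at −3.30 (−3.54 to −3.06). Ccnt1, the cyclin subunit of the elongation factor P-TEFb, had 541 and 73 reads, at −3.17 (−3.55 to −2.82). These genes were enriched in 4sU over Ft in untreated cells as well. Yod1 stood at −4.55 and −4.43 in the NT cultures, Skil at −2.97 in both, and Ccnt1 at −3.37 and −3.19. Of the 12 genes, Fnip1 and Tmem2 passed the test of the AS-minus-NT difference that is described below. Tmem2, a cell-surface protein that degrades hyaluronan, was at −3.26 in AS and at −1.87 and −2.03 in NT (difference −1.45 ± 0.39 SE, edgeR adjusted p = 0.0306). The value of Lysmd3 was −0.51 when reads past the annotated gene end were left out.

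Of the genes named, Yod1, Fam126b, Mast4, Skil, Cpeb4, Nipal1 and Ccnt1 carried in the 3′UTR the heptamer TATTTAT, the core of AU-rich elements, which recruit decay factors to short-lived mRNAs. Of 7516 genes with a value in all cultures, 5714 lacked it. The genes named have long 3′UTRs, of 1971 to 6847 nt. In the quintile with the longest 3′UTRs (1842 nt or more), 790 genes carried the heptamer and 713 did not. To show what such an element looks like in its context, 30-base windows were read from the 3′UTRs of 6 genes that carry it. They are given in mm9 (NCBIM37), 5′ to 3′ on the transcribed strand, with the heptamer in capitals. Yod1 and Skil are the genes above, Fos and Klf6 are immediate early genes, Cyr61 encodes a matricellular protein, and Zfp36 encodes tristetraprolin, which itself binds such elements.
Yod1, chr1:132618006-132618035 (+): gttatgcaccgTATTTATagagcttacctt
Skil, chr3:31021352-31021381 (+): attttggattaTATTTATtgaaacatgaca
Fos, chr12:86818053-86818082 (+): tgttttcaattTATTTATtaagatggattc
Klf6, chr13:5867736-5867765 (+): gctacgtctctTATTTATgccttgaggact
Cyr61, chr3:145310056-145310085 (−): gaatgttttttTATTTATcaaagtgtagct
Zfp36, chr7:29161981-29162010 (−): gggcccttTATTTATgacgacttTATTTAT
In AS the log2(Ft/4sU) of these genes was −3.98 for Yod1, −3.30 for Skil, −2.41 for Fos, −2.82 for Klf6, −2.57 for Cyr61 and −2.04 for Zfp36.

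At the other end, the 12 highest ratios belonged to Ndufa4, Cstf2t, Wisp2, Gnb2l1, Rps23, Fbxl6, Prdx1, Rplp1, Apeh, Slc35b2, Rpl37a and Tmem147. They ranged from 3.05 to 1.82, and the thirteenth gene was at 1.81. Ndufa4, a subunit of the respiratory chain, had 32 reads in 4sU and 322 in Ft, a log2 ratio of 3.05 (2.52 to 3.62). In total RNA replicates 1, 2 and 4, Ndufa4 had 7.08, 18.6 and 1124 RPM in NT and 5.99, 8.03 and 1243 RPM in AS. Cstf2t had 401, 73.6 and 11429 RPM in NT and 580, 24.1 and 6773 RPM in AS. The counting interval does not cover such a spread between libraries. Prdx1, the most abundant of the 12 mRNAs in Ft at 1864 RPM, encodes a peroxiredoxin that reduces hydrogen peroxide. Its log2 ratio was 2.05 (1.95 to 2.15). Gnb2l1, the ribosomal scaffold protein RACK1, had 3326 reads in Ft and 581 in 4sU, at 2.23 (2.11 to 2.36). Most of these genes also had high ratios in untreated cells, with Ndufa4 at 2.93 and 2.42 and Gnb2l1 at 1.93 and 2.41 in NT. Slc35b2, a sugar nucleotide transporter of the Golgi, was at 1.91 in AS and at 0.89 and 1.13 in NT, and its difference did not pass the test. Of the 12 genes 1 passed, Wisp2, a secreted member of the CCN family of matricellular proteins. It stood at 2.35 in AS against 0.43 and 0.23 in NT, and its difference of 1.88 ± 0.29 SE passed the test (edgeR adjusted p = 0.000118). In Ft the level of Wisp2 was 148 RPM in AS and 143 and 140 RPM in NT, while in 4sU it was 29.0 RPM in AS against 107 and 119 RPM. Wisp2 thus differed in the new RNA and was nearly level in the old RNA.

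**Figure D1:**
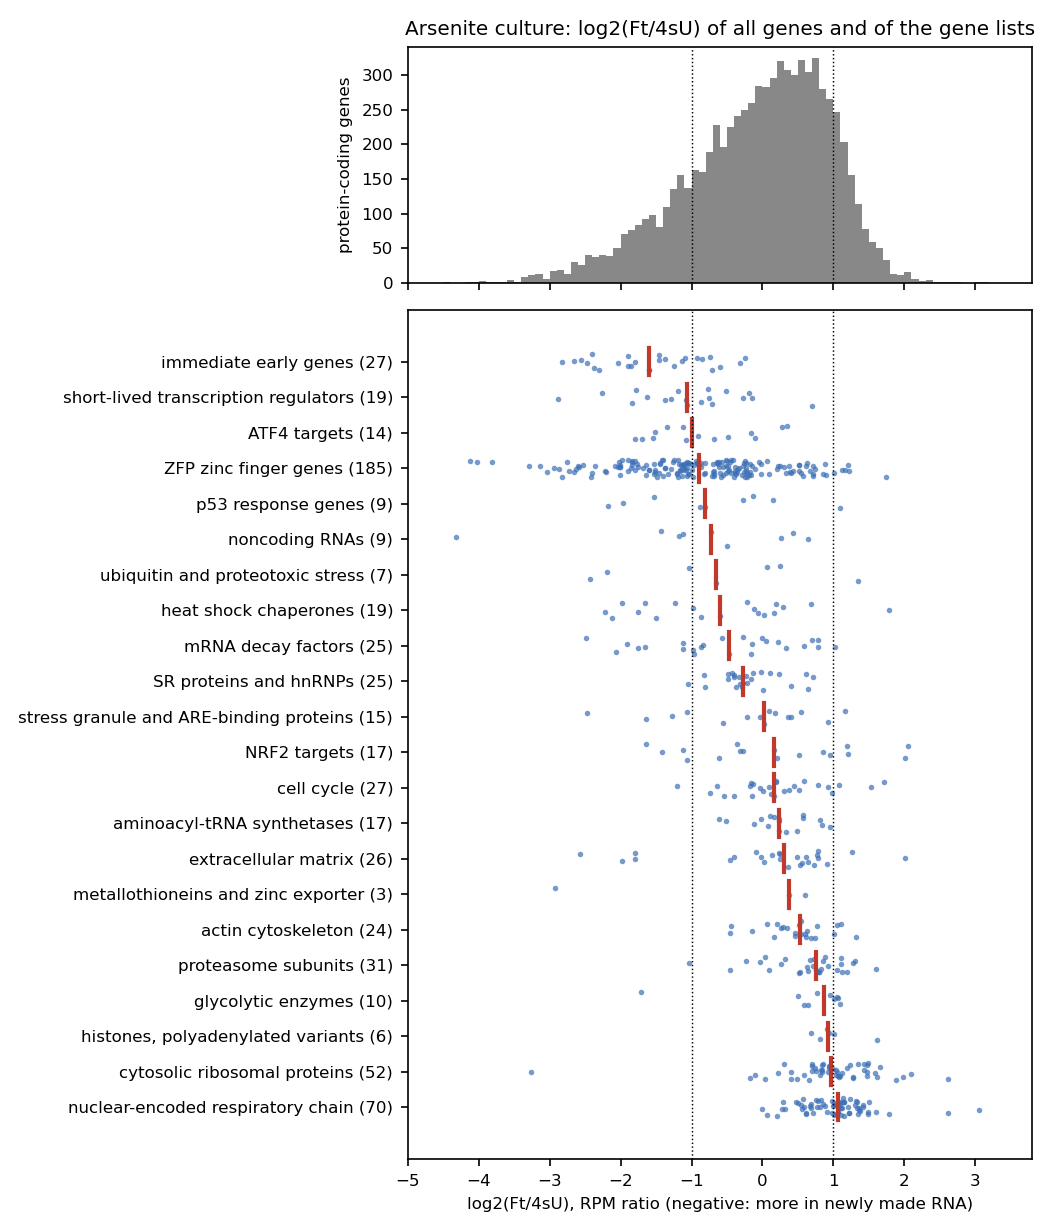
The upper panel is a histogram of log2(Ft/4sU) in the arsenite culture over 7596 protein-coding genes, and the lower panel gives every measured member of 22 gene lists (points, numbers of members in parentheses) with the list median (red line); dotted lines mark 2-fold. Immediate early genes have the lowest median (−1.60) and nuclear-encoded subunits of the respiratory chain the highest (1.06).

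Gene lists of known function showed how the 2 fractions divided. For comparison, 18.5% of all genes measured were at least 2-fold lower in Ft and 13.1% at least 2-fold higher. The nuclear-encoded subunits of the respiratory chain had 42 of 70 measured members at least 2-fold higher in Ft, and none at least 2-fold lower, with a median of 1.06. Of the cytosolic ribosomal proteins, 25 of 52 were at least 2-fold higher in Ft and 1, Rpl24, at least 2-fold lower (median 0.97). Rpl24 had 87 reads in 4sU and 11 in Ft, at an annotated transcript of 4999 nt with 11 exons, which is not the usual mRNA of a ribosomal protein. Rps20, the ribosomal protein gene with most reads, had 5531 RPM in 4sU and 11745 RPM in Ft. Glycolytic enzymes had a median of 0.87, proteasome subunits 0.76, and genes of the actin cytoskeleton 0.53, against 0.07 for all genes measured. Ribosomal protein genes have many processed pseudogenes, and reads shared with those copies may be missing from the counts.

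At the new end stood the immediate early genes, which encode transcription factors and phosphatases that cells switch on within minutes of a stimulus. Of 27 measured, 20 were at least 2-fold lower in Ft and none at least 2-fold higher, and their median was −1.60. The shares over all genes, for this and the next lists, were 18.5% lower and 13.1% higher. Fos was at −2.41, Klf6 at −2.82, Egr2 at −2.55, Jun at −1.46 and Ier2 at −0.93. Targets of ATF4, the transcription factor of the integrated stress response, had 7 of 14 members at least 2-fold lower in Ft (median −0.99), with Ddit4 at −1.54, Ddit3 at −0.91 and Atf4 itself at −0.49. Other short-lived transcription regulators had 10 of 19 (median −1.06), p53 response genes 3 of 9 (median −0.81, Mdm2 at −2.18), and ZFP zinc finger genes 85 of 185 (median −0.90). The heat shock chaperones had 7 of 19 at least 2-fold lower in Ft and 1, Hsp90ab1, at least 2-fold higher.

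Stress-response genes did not all fall on the new side. NRF2 targets, which encode the antioxidant and glutathione enzymes, had 4 of 17 at least 2-fold lower and 4 at least 2-fold higher in Ft (23.5% each way, against 18.5% and 13.1% of all genes). Hmox1, which degrades heme, was at −1.64 (−1.76 to −1.51), whereas Nqo1, a quinone reductase, and Prdx1 were at 2.02 and 2.05. Both metallothioneins, which bind zinc and arsenic, took a larger share of Ft than of 4sU, with Mt1 at 0.38 and Mt2 at 0.60. In Ft they stood at 1.83-fold and 1.61-fold the mean of the NT cultures, so their Ft need not be RNA made before the stress alone. Adjustment for the number of uridines, described below, turned the median of their list from 0.38 to −0.86. By contrast the zinc exporter Slc30a1 was at −2.92 before adjustment. Among stress-granule and ARE-binding proteins, Zfp36l1 was at −2.48, Elavl1 at 0.09, G3bp1 at 0.40 and Cirbp at 1.16. SR proteins and hnRNPs, which regulate splicing, had a median of −0.27, with 1 of 25 members at least 2-fold lower. Genes of the extracellular matrix (median 0.31), the cell cycle (0.16), aminoacyl-tRNA synthetases (0.23) and polyadenylated histone variants (0.92) lay between these extremes or on the old side. The noncoding RNAs held both ends. Malat1, a nuclear RNA, was at −4.32 (−5.12 to −3.62, 279 and 17 reads), Neat1, also nuclear, at −1.11, and Gas5, the host of several snoRNAs, at 0.43. The method reads polyadenylated ends only, so forms of Malat1 and Neat1 without a poly(A) tail are not covered by these values.

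The levels behind the ratios were then set beside those of untreated cells, as values of single libraries without a test. Hspa1b, the inducible HSP70, had 3257 RPM in 4sU of AS cells against 48.1 and 53.8 RPM in NT, which was 63.9-fold the NT mean. In Ft it had 827 RPM against 27.3 and 36.8 RPM, or 25.8-fold. Both fractions of AS cells thus lay far above both NT cultures. Hspa1b and Hspa1a are near-identical copies, and Hspa1a had 24 reads in 4sU and none listed in Ft, so that the split between them is uncertain. Dnajb1, the HSP40 partner of HSP70, lay above both NT cultures likewise, with 2754 RPM in 4sU (20.0-fold the NT mean) and 634 RPM in Ft (12.7-fold). Fos had 2321 RPM in 4sU and 438 RPM in Ft, which were 35.2-fold and 25.4-fold the NT means. Hmox1 was at 16.2-fold and 12.3-fold, and Atf3, a stress-induced transcription factor, at 22.3-fold and 25.4-fold. For these genes the excess over NT was therefore present in the flow-through as well as in the captured RNA of the same 1 h. Stress and label covered the same 1 h, so Ft of these genes cannot be read as RNA made before the stress alone.

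For another set of genes the levels differed mainly in the 4sU fraction. Zfand2a, which encodes the arsenite-inducible protein AIRAP that binds the proteasome, was at 7.46-fold the NT mean in 4sU (227 RPM) and at 1.81-fold in Ft (42.0 RPM). Gla, the lysosomal α-galactosidase A, was at 6.14-fold and 1.32-fold. Hsph1, an HSP110 nucleotide exchange factor, was at 3.45-fold and 1.58-fold, and Sqstm1, the autophagy receptor p62, at 2.94-fold and 1.37-fold. Actb, cytoplasmic β-actin, was at 1.60-fold in 4sU (8193 RPM) and 0.93-fold in Ft (7420 RPM). Rps20 was at 1.04-fold and 1.05-fold.

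**Figure D2:**
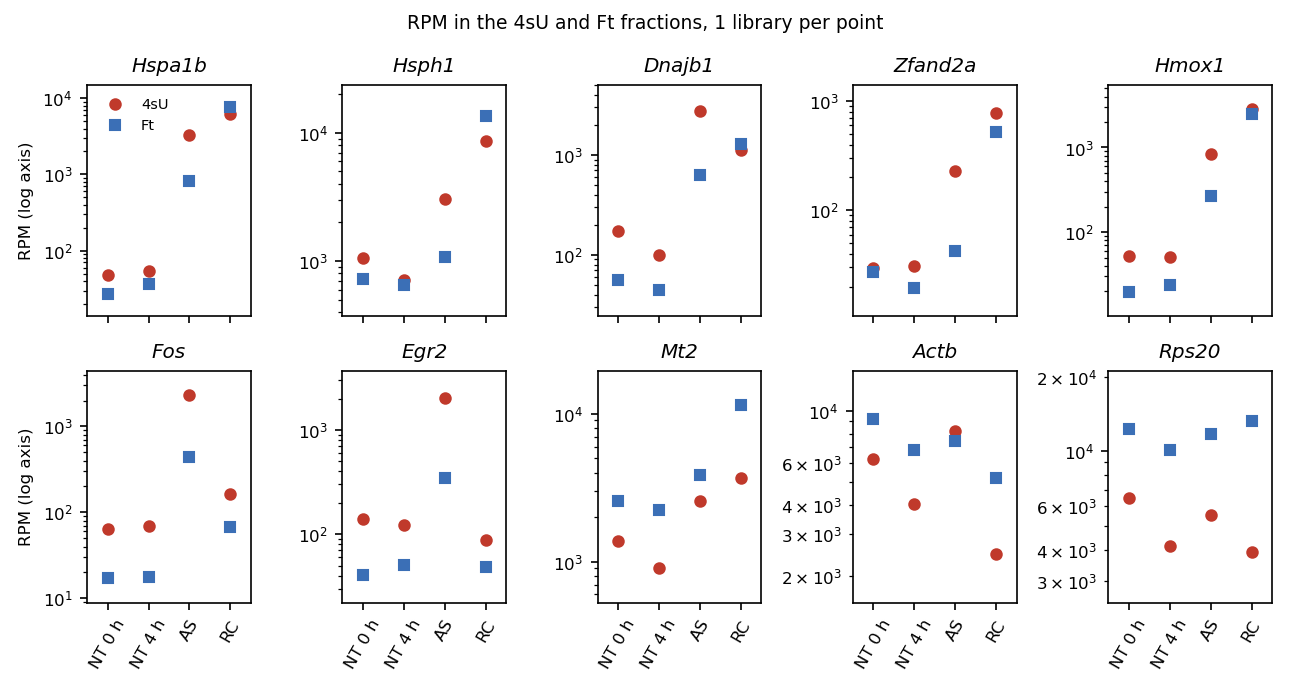
RPM of 10 genes (log axes that differ between panels) in the 4sU (red circles) and Ft (blue squares) libraries of the NT 0 h, NT 4 h, AS and RC cultures, each point being 1 library. In AS, Hspa1b stands at 3257 RPM in 4sU and 827 RPM in Ft, far above NT in both, while Actb lies above NT only in 4sU.

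At 4 h of recovery several chaperone mRNAs took a larger share of Ft than of 4sU. Hspa1b had 6255 RPM in 4sU and 7606 RPM in Ft, a log2(Ft/4sU) of 0.28, and Hsph1 had 8680 and 13621 RPM, at 0.65. Summed over the heat shock chaperones, the list made up 14225 RPM of the 4sU library and 7267 RPM of the Ft library in AS, and 28511 and 43448 RPM in RC. In untreated cells too the list was larger in Ft, with 4307 and 4820 RPM at NT 0 h and 3472 and 4402 RPM at NT 4 h. The immediate early genes had 23691 RPM in 4sU and 7945 RPM in Ft of AS cells, against 6990 and 2574 RPM at NT 0 h, and 8139 and 5290 RPM in RC. The chaperone mRNAs were thus largest in Ft at the later time, and the immediate early mRNAs largest in 4sU at the end of the stress.

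Across genes, the AS ratios followed those of untreated cells. Over 7516 genes with a value in all 4 cultures, Pearson's r of AS was 0.82 with NT 0 h and 0.82 with NT 4 h, and 0.69 with RC, while the NT cultures correlated at 0.91. These describe 1 library pair each, and genes are not independent replicates. Of 1369 genes at least 2-fold lower in Ft of AS cells, 71.7% were so in both NT cultures, and of 1413 such genes in both NT cultures 69.4% were so in AS. On the old side the corresponding shares were 35.9% of 991 and 63.9% of 557. The absolute difference between the NT cultures had a median of 0.26 and a 95th percentile of 0.90. That between AS and the NT mean had a median of 0.36 and a 95th percentile of 1.25, and the median gene was higher in AS by 0.13.

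The AS-minus-NT difference in log2(Ft/4sU) was tested with the fraction-by-stress interaction of edgeR's quasi-likelihood test. The fit scaled the libraries by edgeR's TMM factors, not by the library totals used for RPM. Its differences therefore deviate from those of the printed ratios, as for Hspa1b with −1.46 in the fit and −1.29 by RPM. The fit used the 6 AS and NT libraries with the culture as a block, which leaves 1 residual degree of freedom and assumes that the single AS culture varied like the NT cultures. Of 10264 genes tested, 166 (1.62%) were lower in AS, toward new RNA, and 161 (1.57%) were higher. Size factors by median ratios gave 328 lower and 168 higher, moving the share of higher calls from 49.2% to 33.9%. DESeq2, which gave an adjusted p to 3100 genes, called 205 lower and 45 higher, a share of 18.0%. With the culture block left out, edgeR called 0 genes, with 1021 at an unadjusted p under 0.05.

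**Figure D3:**
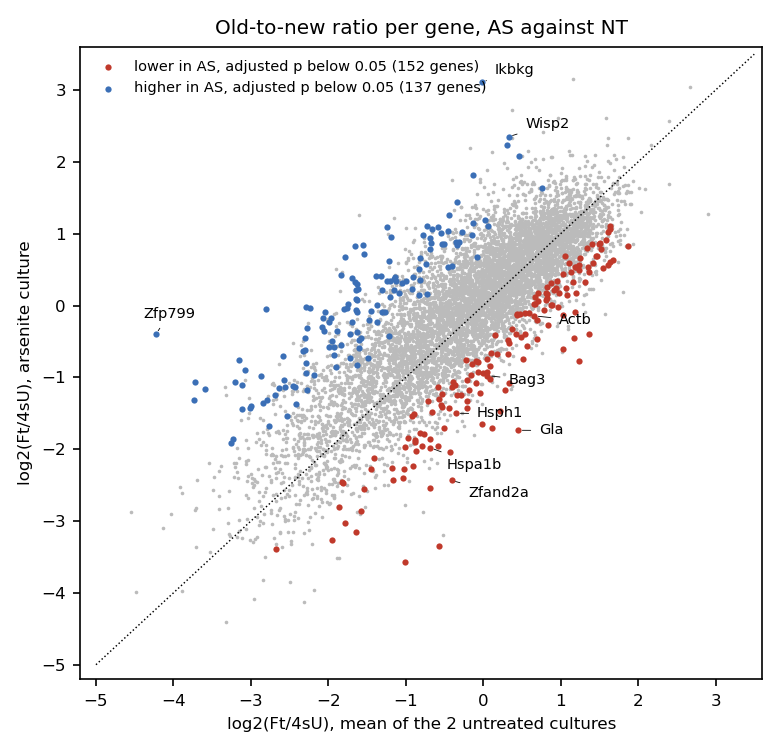
log2(Ft/4sU) of each protein-coding gene in the arsenite culture (y axis) against the mean of the 2 untreated cultures (x axis), with the line of equality dotted; genes past the edgeR test are red (152 lower in AS) and blue (137 higher). Chaperones such as Hspa1b, Hsph1 and Bag3 lie below the line and Zfp799, Wisp2 and Ikbkg above it.

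The heat shock chaperones that passed the test all moved toward new RNA. Of 20 tested, 9 were lower in AS and 0 higher, against 1.62% and 1.57% of all genes, and 14 of 19 with values in all cultures lay below both NT cultures, where 29.9% of all genes did. Their median was −0.60 in AS and −0.09 and 0.11 in NT. Hspa1b was at −1.98 (−2.05 to −1.91) in AS and at −0.82 and −0.55 in NT, a difference of −1.46 ± 0.22 SE (edgeR adjusted p = 0.000118). Hsph1 went from −0.56 and −0.14 in NT to −1.50 in AS (difference −1.30 ± 0.18 SE, edgeR adjusted p = 7e-05). Cryab, a small heat shock protein, went from 1.01 and 1.06 to −0.13 (difference −1.31 ± 0.24 SE, edgeR adjusted p = 0.00161). Hsp90aa1, the inducible HSP90, went from −0.09 and 0.06 to −1.65, and Bag3, a co-chaperone of HSP70 in selective autophagy, from 0.01 and 0.10 to −0.98. Dnajb1, Dnaja1, Hspe1 and Stip1 were the other members called, with differences of −0.86 to −0.79. Fkbp4 and Hsp90ab1, the constitutive HSP90, were at 0.68 and 1.79 in AS and at 0.70 to 1.83 in NT, and did not pass the test. Dnajb4, at −2.22 in AS, was already at −2.30 and −2.05 in NT.

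Promoters of 2 of these chaperone genes are shown because they match the letters of the heat shock element, the motif of HSF1. Binding was not measured. RefSeq promoters (250 bases before to 50 after the start, GRCm38.p6) were searched on both strands for the letters GAA, 2 free bases, TTC, 2 free bases and GAA. The 30 bases around the match, with the matched bases in capitals, were as follows for Hsph1 and Hspe1, the latter with 2 overlapping matches.
Hsph1, chr5:149636280-149636309 (−): tgctgcagaTTCTGGAAAGTTCtcctcagt
Hspe1, chr1:55088050-55088079 (+): cacggtccgTTCTAGAACCTTCCGGAAggc
The motif was in 179 of 27025 genes with a promoter (0.66%), and in 35 of 5587 measured genes with one (0.63%). Among genes lower in AS it was in 4 of 123 (3.25%), namely Hsph1, Hspe1, Arpc2 and Tra2b, and among genes higher in AS in 1 of 108 (0.93%). Of the chaperone list, 18 of 22 had a promoter in the table and 4 held the motif. Hspa1b, Dnajb1, Bag3, Hsp90aa1, Hspa8, Cryab, Zfand2a and Gla were also looked up. They gave no match, for lack of the letters or of a promoter to search. These are letter matches, with no test of the shares.

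Other genes that moved toward new RNA belonged to several lists. Over all genes tested, 1.62% were lower and 1.57% higher. Of 7 genes tested on the ubiquitin and proteotoxic stress list, 2 were lower, among them Zfand2a at −2.43 in AS and −0.13 and −0.69 in NT (difference −2.16 ± 0.32 SE, edgeR adjusted p = 0.000118). Of 18 NRF2 targets tested, 2 were lower and 0 higher. Sqstm1 went from 0.76 and 0.92 to −0.27, and Fth1, the ferritin heavy chain, from 1.31 and 1.50 to 0.85. Of 26 actin cytoskeleton genes, 5 were lower and 0 higher, and they included Actb (0.56 and 0.76 in NT, −0.14 in AS) and Acta2 (1.27 and 1.46 in NT, 0.46 in AS). Of 28 extracellular matrix genes tested 3 were lower, namely Serpinh1, the collagen chaperone HSP47 (difference −1.29 ± 0.20 SE), Fn1 and Sparc. Srf, the transcription factor that controls actin genes and many immediate early genes, went from −0.48 and −0.08 to −1.25. Outside the lists, Gla went from 0.65 and 0.26 to −1.74, a difference of −2.33 ± 0.34 SE (edgeR adjusted p = 0.000113).

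Immediate early genes moved less in their ratio than in their level. Of 28 tested, 4 were lower in AS, namely Egr2, Egr3, Dusp1 and Srf, and 0 were higher, against 1.62% and 1.57% of all genes. Egr2 went from −1.79 and −1.28 in NT to −2.55 in AS (difference −1.18 ± 0.22 SE, edgeR adjusted p = 0.00161). Fos, at −1.89 and −1.97 in NT and −2.41 in AS, did not pass (difference −0.62 ± 0.24 SE, edgeR adjusted p = 0.166), nor did Jun, Klf6 or Zfp36. Of the 14 ATF4 targets, 1, Ddit4, was lower, and of 11 p53 response genes tested none was called. The differences of p53 genes were −0.24 ± 0.20 SE for Plk2, 0.05 ± 0.20 SE for Cdkn1a and 0.33 ± 0.23 SE for Mdm2. Mt2 was lower by a small step, from 0.90 and 1.32 in NT to 0.60 in AS.

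ZFP zinc finger genes, many of which encode transcriptional repressors with KRAB domains, moved the other way where they passed the test. Of 273 tested, 26 were higher in AS and 0 lower, against 1.57% and 1.62% of all genes. Of 173 with values in all cultures 133 (76.9%) lay above both NT cultures, where 48.6% of all genes did. The median of the list was −1.81 and −1.75 in NT, −1.74 in RC and −0.90 in AS. Relative to the NT mean, the median member was lower in 4sU by −0.37 on the log2 scale and higher in Ft by 0.43, against −0.17 and −0.02 for all genes. Zfp788 had 34.6 RPM in 4sU of AS cells and 45.0 and 65.6 RPM in NT, and in Ft it had 34.1 RPM against 8.86 and 13.9 RPM (difference 2.11 ± 0.38 SE, edgeR adjusted p = 0.00112). Zfp263 was at −0.23 in AS and at −1.81 and −2.16 in NT. Zfp799, with 39 and 36 reads in AS, was at −0.40 against −4.89 and −3.57. Members of this family share sequence, so that reads may be split or lost between them, and Zfp36, which the name brings into the list, encodes an RNA-binding protein. With PASs limited to those listed in all 6 libraries, 13 of 207 tested members were higher and 0 lower. DESeq2, whose independent filtering gave a p to 29 of these genes, called 4 higher.

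mRNA decay factors had a median of −0.47 in AS and −0.91 and −0.96 in NT. Of 25 with values in all cultures, 16 (64.0%) lay above both NT cultures, where 48.6% of all genes did. Of 32 tested 1 was called higher, against 1.57% of all genes. It was Exosc4, a subunit of the RNA exosome (−0.43 and −0.11 in NT, 1.02 in AS). Of the noncoding RNAs, Snhg12 was higher and Malat1 lower, and Neat1 was at −1.11 in AS and −1.75 and −1.86 in NT (difference 0.55 ± 0.19 SE, edgeR adjusted p = 0.116). The level of polyadenylated Neat1 ends in 4sU was 430 RPM in AS and 1670 and 1718 RPM in NT. Of the cell cycle genes, 1 of 30 tested, Cdc25a, the phosphatase that activates cyclin-dependent kinases, was higher (−1.79 and −1.88 in NT, −0.55 in AS).

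The genes with the largest fitted differences rested on few reads. Prickle2, Fam63b, Rictor, AI606181, Papolg and Larp4, the 6 most negative among called genes with at least 200 reads over the 6 libraries, had 26 to 53 reads in the AS 4sU library and none listed in AS Ft. With 4 reads at each unlisted PAS, Prickle2 was below −2.43 in AS and at −2.29 and −1.84 in NT, and Rictor, a subunit of mTORC2, below −2.74 against −2.10 and −2.01. Fam63b was below −1.98 against −0.73 and −1.35, and AI606181 below −2.743 against −2.738 and −2.110. The bounds of Papolg (−2.40 against −2.44 and −3.20) and Larp4 (−1.95 against −2.08 and −3.15) lay above both NT values. For Papolg and Larp4 the bounds thus do not show a lower ratio in AS. On the positive side, Kdm4b was listed in AS Ft alone and A430033K04Rik in neither NT Ft library, so that their ratios are bounds as well. Ikbkg, the NEMO subunit of the IκB kinase, had 6 reads in 4sU and 63 in Ft of AS cells, at 3.11 (1.91 to 4.61) against 0.28 and −0.31 in NT. Ppp2r3a, with 10 and 24 reads, was at 0.98 against −1.99 and −2.01.

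**Figure D4:**
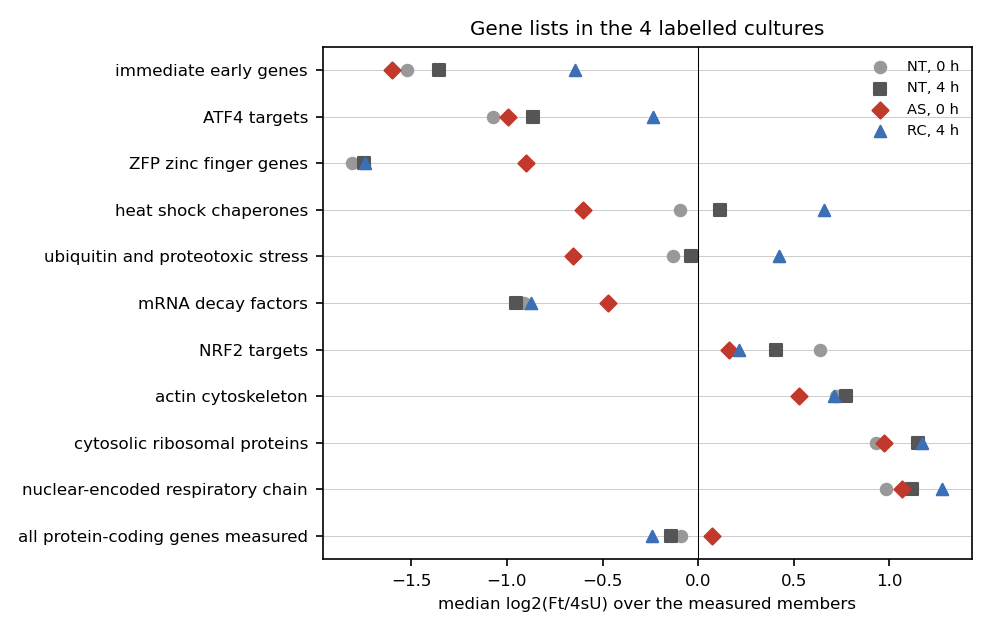
Median log2(Ft/4sU) over the measured members of 10 gene lists and of all measured genes (rows) in the NT 0 h (circles), NT 4 h (squares), AS (diamonds) and RC (triangles) cultures, each from 1 library pair. Heat shock chaperones lie lower in AS (−0.60) than in NT and highest in RC (0.66), and ZFP genes lie higher in AS (−0.90) than in the other cultures.

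In total RNA the same stress gave no call in the comparison of 3 AS with 3 NT libraries of 3′READS (edgeR, 0 of 9107 genes, 19 at an unadjusted p under 0.05, and DESeq2 0 with 25). Libraries with the same replicate number deviated together, and with that number as a block edgeR called 13 genes higher (0.143%) and 0 lower. The 13 genes included Chac1, Csrnp1, Ddit3, Gadd45a, Gadd45b, Gadd45g, Hmox1, Mt1, Mt2, Ppp1r15a, Zfand2a and Zfp36. Hmox1 had 176, 40.8 and 190 RPM in NT and 751, 486 and 649 RPM in AS for replicates 1, 2 and 4 (log2 difference 2.48 ± 0.29 SE with the block, edgeR adjusted p = 0.0109). Hspa1b had 160, 4.30 and 50.9 RPM in NT and 656, 574 and 249 RPM in AS, higher in each of the 3 pairs, but its difference of 3.44 ± 0.76 SE did not pass with the block (edgeR adjusted p = 0.178). In the AS fractions the genes named lay on both sides, from Zfand2a at −2.43 to Mt2 at 0.60.

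Before any adjustment for uridines, the ratio differed with the structure of the mRNA in AS as in NT. Genes without TATTTAT in the 3′UTR had a median log2(Ft/4sU) of 0.26 in AS (5714 genes), those with 1 copy −0.43, with 2 copies −0.94, with 3 copies −1.36, and with 4 or more −1.57 (74 genes). The medians at NT 0 h were 0.10, −0.58, −1.11, −1.43 and −1.80. Copies of TATTTAT rise with the length of the 3′UTR, whose shortest quintile had a median of 0.68 and whose longest quintile had −0.87 in AS. Within the longest quintile, 790 genes with the heptamer had a median of −1.11 and 713 without it −0.62, and within the middle quintile these were −0.21 and 0.22. By the distance from the transcription start to the PAS, the medians in AS went from 0.62 in the shortest quintile to −0.60 in the longest. The AS-minus-NT difference was −0.04 in that longest quintile and 0.14 to 0.24 in the other quintiles. After adjustment for uridine number, as described next, the trend with distance was no longer seen and that with 3′UTR length was much smaller. The AS medians were then −0.11, 0.05, 0.07, 0.01 and −0.06 over the quintiles of distance. Over those of 3′UTR length they were −0.03, 0.05, 0.05, 0.005 and −0.16, with the longest quintile still lowest. The NT mean had a median of −0.39 in that longest quintile and of −0.14 to −0.10 in the others. The AS medians by TATTTAT went from 0.05 without it to −0.85 with 4 or more copies. All of these are descriptions across genes that share the same libraries.

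**Figure D5:**
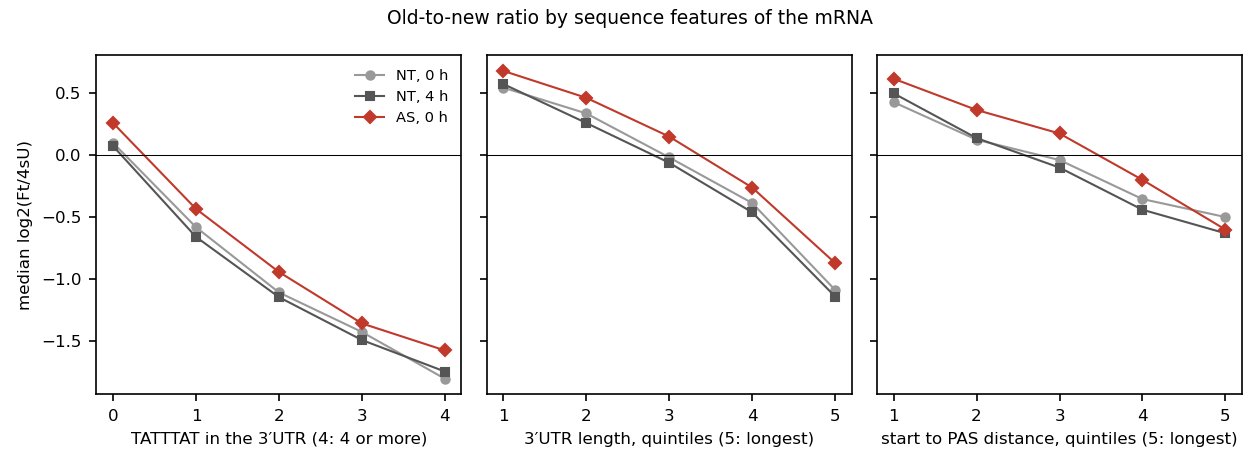
Median log2(Ft/4sU) at NT 0 h (circles), NT 4 h (squares) and AS (diamonds) by the number of TATTTAT heptamers in the 3′UTR, by quintiles of 3′UTR length and by quintiles of the distance from transcription start to PAS. In AS the median falls from 0.26 without the heptamer to −1.57 with 4 or more, and the AS line meets the NT lines in the quintile with the longest distance.

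Uridine number, which sets how many positions can take up 4sU, moved with these ratios. In AS the slope of log2(Ft/4sU) on log2 of the number of uridines was −0.61 over 7596 genes, and in NT it was −0.60 and −0.65. After regression on uridine number, 549 genes instead of 997 were at least 2-fold higher in Ft. The median of the ribosomal protein genes, whose mRNAs are short, went from 0.97 to −0.29, and that of the respiratory chain genes from 1.06 to 0.08. Of 21 list medians, 5 moved by less than 0.185, the SD of list medians between the NT cultures, 14 moved by more, and 2, the ribosomal proteins and the metallothioneins, changed sign with both values farther than that from 0. The histone variants went from 0.92 to 0.07, the proteasome subunits from 0.76 to 0.21, the actin cytoskeleton genes from 0.53 to −0.01 and the mRNA decay factors from −0.47 to 0.01, while the extracellular matrix genes went from 0.31 to 0.86. The immediate early genes and the chaperones stayed on the new side, with the chaperones at −0.84. The ZFP genes had an adjusted median of −0.57 in AS and −1.51 in the NT mean. The adjustment used 1 number of uridines per gene in all cultures, and a change of a gene's isoforms between AS and NT was not entered in it.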

How the data were processed

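The authors mapped 3′READS reads to mm9 with Bowtie2 after trimming with cutadapt and deposited raw read counts per PAS, in which no PAS has fewer than 5 reads. From these counts, PASs within 24 nt on a strand were joined and assigned to the last exons of GENCODE M1 genes and up to 4000 nt downstream, short of the next gene. Mitochondrial PASs were left out of genes. log2(Ft/4sU) used RPM over all reads, for genes with at least 50 reads. Differences were tested with edgeR 4.0.16 (TMM, quasi-likelihood, Benjamini-Hochberg adjustment at 0.05, R 4.3.3), and DESeq2 1.42.0 was an alternative. A simulation of 10053 genes recovered 55.6% of 4-fold changes in the interaction, and one of 8925 genes 99.5% in total RNA. Both were drawn at a fixed dispersion of 0.02 and without the replicate deviations described next. The 99.5% is therefore not the power of the real total RNA comparison. Same-numbered total RNA libraries of AS and NT deviated together (correlations of 0.83, 0.83 and 0.75, others negative), so the replicate number pairs them. Nothing says that the samples came from separate experiments, so p-values measure the spread between these samples. Named genes were the 12 lowest and 12 highest ratios with at least 200 reads, the 6 most negative and 6 most positive called differences, and the members of each list with most reads or beyond ±2. Others were named after their values were seen, and some genes are not reported here. The members and lists were chosen with earlier results of these data known. Alternatives were other size factors, read minimums, PAS sets, the uridine adjustment and left-out libraries. Counting PASs listed in all libraries was added after seeing the data.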

Additional observations from a re-analysis of the deposited data

Results flagged for a closer look

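The AS-minus-NT difference in log2(Ft/4sU) passed the edgeR interaction test for 166 genes lower and 161 genes higher in AS. Toward new RNA, the differences of the most negative called genes listed in all 6 libraries were −2.87 for Nf1, −2.68 for Sema3a, −2.33 for Gla, −2.16 for Zfand2a, −2.15 for Actg2 and −1.98 for Cep76. The called stress genes Hsp90aa1 (−1.78), Hspa1b (−1.46), Hsph1 (−1.30), Bag3 (−1.18) and Dnajb1 (−0.85) lay on the same side. Toward old RNA they were 3.52 for Zfp799, 2.97 for Ikbkg, 2.82 for Ppp2r3a, 2.73 for Srl, 2.50 for Zfp882 and 2.48 for Zfp952. Nf1 and Sema3a had 6 and 5 reads in AS Ft. When only PASs listed in all 6 libraries were counted, the difference of Nf1 was −0.73 and did not pass. Those of Cep76 (−1.79), Ppp2r3a (2.23), Srl (1.81), Zfp882 (2.07) and Zfp952 (1.55) did not pass either, with the direction kept. Zfp799, Ikbkg and Sema3a had no value in that count, so none of the positive genes named here passed it.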

How the results depend on the processing

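With at least 200 reads, 697 genes were at least 2-fold lower and 573 at least 2-fold higher in Ft of AS cells, where fewer genes were measured, and with the uridine adjustment 549 were higher. That adjustment turned the medians of the metallothionein list (0.38 to −0.86) and the ribosomal protein list (0.97 to −0.29). For the AS-minus-NT difference, size factors by median ratios gave 328 genes lower, DESeq2 called 45 higher and 205 lower, and no filter on low counts left 74 higher and 72 lower. The cause of these shifts was not tested. The fit with no replicate block gave 0 higher and 0 lower (1021 genes at an unadjusted p under 0.05), and in total RNA the replicate block gave 13 higher where the fit without it gave 0. In that fit without the block, which had no calls to lose, leaving out each library in turn gave 0 calls, with 11 to 38 genes at an unadjusted p under 0.05. The other 42 recomputed counts stayed within 1.5 times the reported ones. Those of total RNA among them were 0 against a reported 0, and could not fall. Of the named genes' differences, 26 calls were lost, 17 of them without the replicate block, 6 with PASs listed in all 6 libraries and 3 with no filter. With 1 AS library per fraction and no count under 5 listed, the ratios of genes with few reads in either fraction are uncertain, and genes unlisted in 1 library are given by bounds.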
